A study of Mus musculus with 11 samples.

Results

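Oxidative phosphorylation is carried out by 5 protein complexes of the inner mitochondrial membrane, and the transcripts of their subunits were examined here in transferred vTreg53 Treg cells. The members were taken by symbol (Nduf genes of the a, b, c, s and v series, Sdha to Sdhd, Uqcr genes, Cyc1, Cox4 to Cox8 genes, Atp5 genes and the protein genes of mitochondrial DNA), without pseudogenes, and with more than 10 counts on average in any of the groups once libraries were brought to a common total. Of 106 symbols that fit the pattern, 96 passed this threshold, out of 12932 genes that passed it in a table of 52997. The members comprised 85 nuclear genes and 11 genes of mitochondrial DNA. The pattern also takes in 8 Ndufaf genes, which encode assembly factors and not subunits of complex I. The other 77 nuclear members were counted as subunits by symbol alone, without a check of each gene.

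Transcripts were counted in 11 libraries, each prepared by Smart-seq2 from 1000 double-sorted CD45.2+ clonotype+ Treg cells. The donors were Foxp3-GFP knock-in mice that carry, in the heterozygous state, the Tcra and Tcrb transgenes of 1 Treg clone of visceral adipose tissue (vTreg53 Tg+), on a C57BL/6 background, so all libraries stand for a single TCR specificity, and male mice aged 15 wk are named in the labels. The cells were transferred into CD45.1 B6 recipients. Primed 6 weeks later with CFA and boosted 1 week after that with IFA, the recipients received the adjuvants either without peptide (adjuvant alone) or with Fat1562, a surrogate peptide agonist of the vTreg53 TCR (adjuvant/Fat1562). The labels call the control mice PBS or unimmunized where the methods describe adjuvant alone, and the latter name is used. Cells came from pooled spleen and lymph nodes (Spl/LN) or from collagenase-digested epididymal visceral adipose tissue (VAT). There were 3 libraries from Spl/LN with adjuvant alone, 3 from Spl/LN with adjuvant/Fat1562, 2 from VAT with adjuvant alone and 3 from VAT with adjuvant/Fat1562. The libraries are described as biological replicates, but whether each came from its own mice is not stated, so the p-values measure the spread between these libraries.

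Complex I (NADH dehydrogenase) and complex II (succinate dehydrogenase) pass electrons to ubiquinone, complex III (cytochrome bc1) passes them to cytochrome c, and complex IV (cytochrome c oxidase) passes them to oxygen, while complex V (ATP synthase) uses the resulting proton gradient to make ATP. Complexes I, III, IV and V are built from the products of both genomes, and complex II from nuclear genes only. The genes of mitochondrial DNA are transcribed inside the organelle as long precursors that are cut into separate mRNAs, and nuclear subunit genes are transcribed 1 by 1 in the nucleus. Adipose tissue Treg cells live in a lipid-rich tissue, and Treg cells in general are known for a reliance on mitochondrial respiration.

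Total counts per library lay between 4490242 and 6570057, and reads were 38 bases long. Counts are given below as TMM-normalized counts (counts brought to the mean library size with edgeR's TMM factors). Foxp3 (6747 to 10250 normalized counts) and Cd4 (2114 to 3518) were present in every library. Defining markers of adipocytes summed to at most 19.96 normalized counts in any library, those of macrophages or monocytes to at most 139.9 and those of fibroblasts or mesothelium to at most 42.7. In VAT with adjuvant alone the adipocyte genes Adipoq and Retn and the macrophage genes Adgre1 and Fcgr1 were at 0. The B cell list of 5 genes (Cd79a, Cd79b, Ms4a1, Ighm and Igkc) summed to 17350 to 18410 in the Spl/LN controls, to 12200 to 13320 in the Spl/LN peptide group, where Ms4a1 was at 0, and to 6591 to 8836 in the VAT peptide group. In the VAT controls it summed to 6893 in library 1 and 39030 in library 2, so library 2 stood apart in this respect. In bulk samples fewer cells of a type and less RNA per cell cannot be told apart.

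Reads of 38 bases cannot always be placed on mitochondrial genes, because the nuclear genome holds copies of mitochondrial DNA. A run of 7 annotated pseudogenes on the minus strand of chromosome 1 (GRCm38, 24611535 to 24616197, GENCODE vM21) copies the stretch from mt-Co1 to mt-Nd4, and the following sequences show what that means for counting. The first pair gives a stretch of mt-Co3 (chrM:8707-8766, plus strand) and of its copy Gm28437 (chr1:24613812-24613871, minus strand), which are the same letter by letter, as are all 783 bases compared.
mt-Co3: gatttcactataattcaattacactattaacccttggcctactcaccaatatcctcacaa
Gm28437: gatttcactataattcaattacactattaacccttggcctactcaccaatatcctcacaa

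The next sequence gives the stretch at the same distance from the start of mt-Nd1 (chrM:2851-2910, plus strand), a gene of which no 38-base stretch occurs in another annotated gene.
mt-Nd1: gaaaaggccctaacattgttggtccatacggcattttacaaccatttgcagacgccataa

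The last shows bases 832 to 921 of mt-Nd4 (chrM:10998-11087, plus strand), where the copy ends. Capitals mark the bases inside 38-base stretches shared with Gm28439, which cover bases 1 to 876 of the 1378 of mt-Nd4.
mt-Nd4: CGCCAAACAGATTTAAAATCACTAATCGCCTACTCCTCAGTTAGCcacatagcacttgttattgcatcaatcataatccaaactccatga

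The counts of the mitochondrial genes differed by orders of magnitude along this division. mt-Nd1, mt-Cytb and mt-Nd5, with 0%, 1.99% and 13% of their 38-base stretches found in another annotated gene, had 16590, 7790 and 3601 normalized counts per kb of transcript. mt-Co2, mt-Co3, mt-Atp6, mt-Nd3 and mt-Nd4l, with 98.1% to 100% shared, had 10.9 to 61 per kb. In raw counts mt-Co1 had 14060 to 20576 per library and mt-Co3 13 to 23. The pseudogene Gm28437 had 13 to 30 raw counts per library, about as few as mt-Co3 itself. mt-Co1 (58.4% shared) and mt-Nd4 (62.6% shared) lay between in sharing and had 11230 and 1654 per kb. Sharing does not order all genes, since mt-Nd6, with 1.04% shared, had 369 per kb. mt-Atp8, with 3.59% shared, had 20.4 per kb, but it starts between mt-Co2 and mt-Atp6, inside the stretch copied on chromosome 1. Only annotated genes were searched, so a copy of it outside the annotated pseudogenes would not have been counted. Whether reads with several placements were dropped is not given in the sources used here, so the low counts of the shared genes were not read as low expression.

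**Figure D1:**
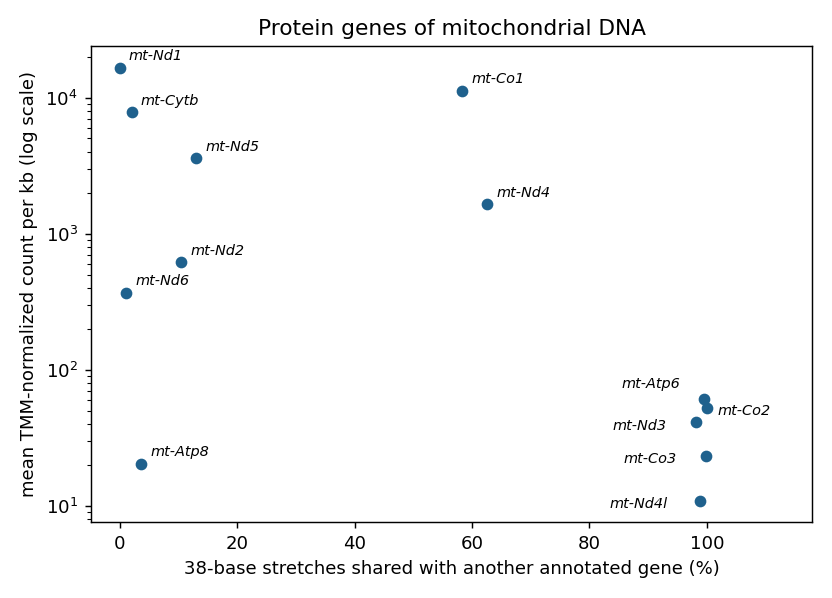
Mean TMM-normalized count per kb of transcript over 11 libraries (vertical axis, log scale) against the percentage of a gene's 38-base stretches found in another annotated gene (horizontal axis) for the 13 protein genes of mitochondrial DNA. The 5 genes with 98.1% or more shared all sit at 61 per kb or lower, and mt-Nd1, with 0% shared, is highest at 16590.

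Of all counts on mitochondrial members, mt-Co1 made up 33.5%, mt-Nd1 30.2%, mt-Cytb 17.3%, mt-Nd5 12.7% and mt-Nd4 4.44%, together 98.2%. Sums over the mitochondrial members are therefore sums over these 5 genes, of which 3 encode complex I subunits, 1 the cytochrome b of complex III and 1 the catalytic subunit of complex IV. mt-Atp6, the proton channel subunit of complex V, contributed 0.0797%. The other mitochondrial genes, mt-Atp8 and mt-Nd4l, did not reach the threshold, with at most 5.37 and 4.41 counts in any group mean. The lowest members just inside it were mt-Nd3 at 18 and mt-Co3 at 22.5, and the highest symbols just outside were Cox4i2 at 7.13 and Cox7a1 at 6.08.

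Nuclear members had between 35.2 (Ndufaf6) and 5194 normalized counts on average. The highest were the β and α subunits of the catalytic head of ATP synthase, Atp5b (5194) and Atp5a1 (5027). For complex IV these were Cox4i1 (2898) and Cox8a (1269), for complex II the flavoprotein Sdha (2604) and the iron-sulfur protein Sdhb (1637), for complex III the core subunit Uqcrc1 (2484) and the hinge protein Uqcrh (1275), and for complex I Ndufa13 (1176) and Ndufa4 (1050). Ndufa4 carries a complex I name but is now regarded as a subunit of complex IV. It was counted with complex I in every sum, median and count by complex given here. Per kb of transcript the medians rose from 81.3 for the assembly factors through 506 for complex I, 651 for complex II, 818 for complex III and 972 for complex V to 1245 for complex IV. The ranges within complexes were wide (for complex V, 23.8 for Atp5s to 2711 for Atp5b) and overlapped.

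Where the genome holds tissue isoforms, the cells expressed the broadly used one in all 4 groups. Cox4i1 had 2649 to 3190 normalized counts in the 11 libraries against at most 7.59 for Cox4i2, the form known from lung. Cox6a1 (860 to 1093), Cox6b1 (1006 to 1291), Cox7a2 (748.9 to 944.3) and Cox8a (1128 to 1400) were likewise present. Their muscle, heart or testis counterparts Cox6a2, Cox6b2, Cox7a1, Cox8b and Cox8c had at most 10.03 in any library, and Cox7b2 at most 2.04. Ndufa4l2, known as a hypoxia-induced paralog of Ndufa4, had at most 1.08. The 3 genes that encode the same c subunit of ATP synthase stood at 1304 (Atp5g3), 306.7 (Atp5g1) and 110.2 (Atp5g2) normalized counts on average, but 87.6% of the 38-base stretches of Atp5g2 occur in other annotated genes and its count is uncertain. Of the genes named so far in this paragraph that passed the threshold, only Ndufa4, described below, was called in any of the 4 comparisons. Cox7b, the counterpart of Cox7b2, was called in VAT against Spl/LN with adjuvant/Fat1562 (log2 fold change 0.41, edgeR adjusted p = 0.00958).

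The summed mitochondrial and nuclear members did not move together across the 4 groups. The 11 mitochondrial members took up 1.08% ± 0.035 (SD, n = 3) of all counts in the Spl/LN controls and 0.807% ± 0.0292 (n = 3) in the Spl/LN peptide group. In VAT they took up 1.13% ± 0.0644 (n = 2) with adjuvant alone and 0.908% ± 0.065 (n = 3) with adjuvant/Fat1562. In each tissue every library with adjuvant/Fat1562 lay below every library with adjuvant alone. The nuclear members took up 1.31% ± 0.0395, 1.24% ± 0.0499, 1.14% ± 0.0099 and 1.28% ± 0.038 in the same order. The Spl/LN groups overlapped in this share, while in VAT every library with peptide lay above both controls. Per nuclear count there were 0.828 ± 0.0516 mitochondrial counts in the Spl/LN controls, 0.652 ± 0.0252 in the Spl/LN peptide group, 0.989 ± 0.0645 in the VAT controls and 0.713 ± 0.0635 in the VAT peptide group. This ratio is independent of how libraries were scaled, and again the groups with and without peptide did not overlap in either tissue. The mitochondrial and nuclear members come from the same libraries, so their opposite directions in VAT are 1 observation on 5 libraries.

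By complex, the mitochondrial complex I genes summed to 27970 ± 208.2 normalized counts in the Spl/LN controls and 19450 ± 1011 with peptide, and to 32580 ± 1089 and 24620 ± 1422 in VAT. mt-Cytb of complex III went from 10420 ± 518.4 to 8148 ± 411.6 in Spl/LN and from 9254 ± 68.59 to 7938 ± 346.5 in VAT. The mitochondrial complex IV genes, nearly all mt-Co1, went from 16650 ± 1152 to 14830 ± 351 and from 22220 ± 1534 to 17540 ± 1260. In all 3 complexes and both tissues every peptide library lay below every control, and the highest group was VAT with adjuvant alone for complexes I and IV but Spl/LN with adjuvant alone for mt-Cytb. The nuclear sums moved by less. Nuclear complex V members summed to 21520 ± 893.5, 20930 ± 352.5, 21140 ± 671.8 and 23160 ± 877.9 in the Spl/LN controls, the Spl/LN peptide group, the VAT controls and the VAT peptide group, and nuclear complex IV members to 11200 ± 957.1, 11170 ± 516, 10940 ± 388.9 and 12250 ± 450. Complexes I, III, IV and V had their highest nuclear mean in VAT with adjuvant/Fat1562, and complex II had it in Spl/LN with adjuvant alone (5165 ± 35.35 against 5022 ± 142.5). In VAT the peptide libraries lay above both controls in complexes I, III, IV and V, and in Spl/LN the groups overlapped in these 4, while in complex II the Spl/LN peptide libraries (4603 to 4929) lay below the controls (5124 to 5188).

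**Figure D2:**
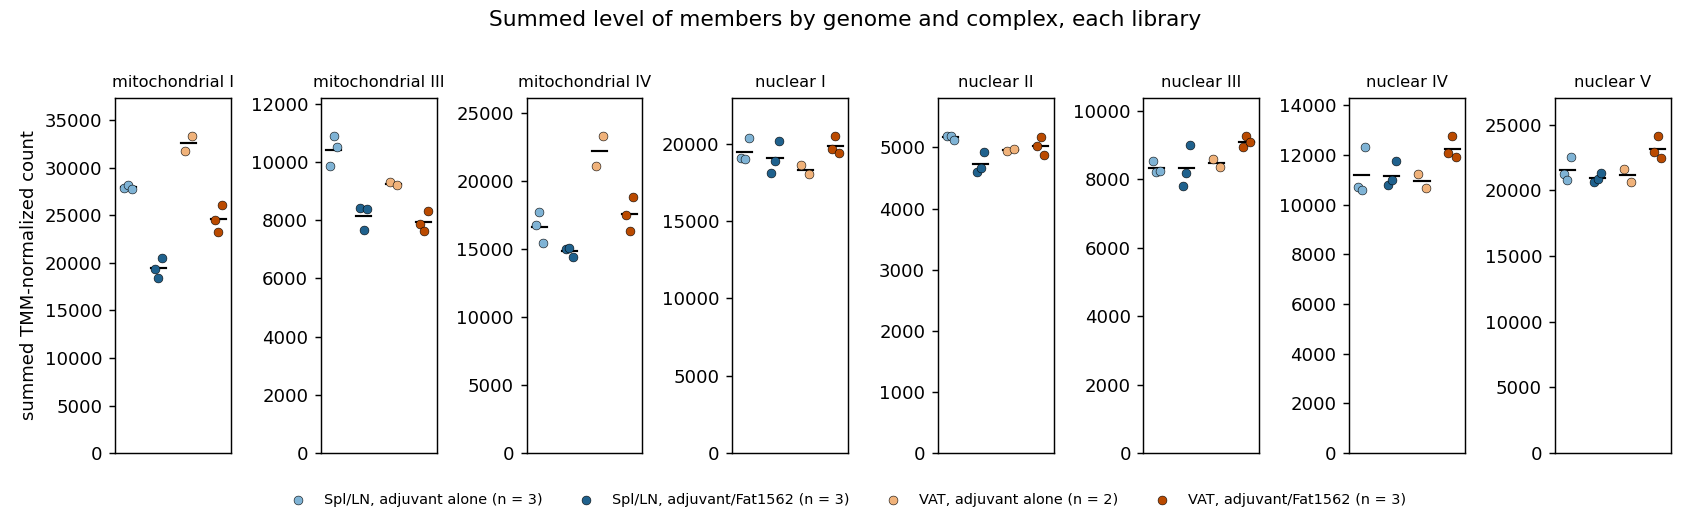
Summed TMM-normalized counts (axes from 0) of the mitochondrial members of complexes I, III and IV and the nuclear members of complexes I to V; points are libraries, colored by group, and bars are group means (n = 3, 3, 2 and 3). The mitochondrial sums fall between adjuvant alone and adjuvant/Fat1562 in both tissues, while the nuclear sums of complexes I, III, IV and V overlap in Spl/LN and are higher with peptide in VAT.

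In Spl/LN cells the members that differed with the peptide by edgeR's test were mitochondrial genes. With adjuvant/Fat1562 against adjuvant alone in Spl/LN, 4 of the 96 members were lower and 0 higher, and the 4 were mt-Nd1, mt-Nd2, mt-Nd5 and mt-Cytb. Of all 12932 genes tested, 1.4% were lower and 2.58% higher (edgeR's quasi-likelihood test, adjusted p under 0.05 over all genes). All 4 lie among the 5 mitochondrial members with at most 20% shared stretches. None of the 85 nuclear members was called, and 2 of them had an unadjusted p under 0.05, against 2371 of all 12932 genes. DESeq2 called 6 members, all lower.

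mt-Nd1, which encodes a core membrane subunit of complex I, had 16590, 16690 and 16110 normalized counts in the controls and 11140, 10510 and 11830 with the peptide. The 2 groups were far apart, and the level fell by 32.2% (log2 fold change −0.56 ± 0.07 SE, edgeR adjusted p = 9.0e-05). mt-Nd5, another core membrane subunit, had 7751, 8027 and 8134 against 5530, 5205 and 5823 (−0.53 ± 0.07, edgeR adjusted p = 0.000333). mt-Nd2, a further subunit of complex I, had 767.8, 734.3 and 749.6 against 446.2, 539.7 and 566 (−0.54 ± 0.12, edgeR adjusted p = 0.0135). For mt-Cytb, the cytochrome b of complex III, the counts were 9863, 10890 and 10500 against 8400, 7673 and 8371 (−0.35 ± 0.07, edgeR adjusted p = 0.00574). In all 4 genes every library with peptide lay below every library without. The B cell list was also lower in the peptide group (12200 to 13320 against 17350 to 18410), and its part in these results was not tested. The call of mt-Nd2 was lost without library 1 or library 2 of Spl/LN with adjuvant/Fat1562 (adjusted p = 0.0707 and 0.0508), that of mt-Cytb without library 2 (0.0514), and without library 2 the count of members called was 2 instead of 4.

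Each of the 11 mitochondrial members had an estimate below 0 in this comparison, with a median of −0.53 and a range from −0.65 (mt-Co3) to −0.17 (mt-Co1), beside a median of 0.00 over all genes. The estimate of mt-Co3, from 13 to 23 raw counts per library, had a standard error of 0.46. For the 5 members with at most 20% shared stretches, whose counts are less uncertain, the median was −0.54 and all 5 were below 0. The catalytic subunit gene mt-Co1 had 16730, 17660 and 15380 normalized counts with adjuvant alone and 14960, 15030 and 14390 with adjuvant/Fat1562 (−0.17 ± 0.07, edgeR adjusted p = 0.213), so its fall did not pass the test. mt-Nd4 (−0.29, edgeR adjusted p = 0.0528) and mt-Nd6 (−0.54, edgeR adjusted p = 0.0712) did not pass either. Of the mitochondrial members 9 had groups that did not overlap, with the peptide group below, and 0 with it above, against 9.84% and 11.4% of all genes. The 5 members with at most 20% shared stretches were among these 9. Among the 85 nuclear members the corresponding counts were 5 below and 2 above, their median was −0.04, and 30 were above 0 (17 with library totals and 18 with quantile normalization). The nuclear median was −0.10 without library 3 of Spl/LN with adjuvant/Fat1562. It was −0.005 and −0.011 without library 3 of the controls and library 1 of the peptide group.

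In VAT the peptide comparison divided the 2 genomes. With adjuvant/Fat1562 against adjuvant alone, 3 nuclear members were higher (Ndufa4, Ndufc2 and Uqcr10) and 3 mitochondrial members lower (mt-Nd1, mt-Nd2 and mt-Co1), where 4.33% of all genes tested were higher and 3.97% lower. The 3 of 96 called in each direction are no larger a share than that over all genes, so the count is not a result about the members. Under DESeq2 the count was 10. It was 3 without library 1 of VAT with adjuvant alone, and 2 without library 2 of VAT with adjuvant alone or library 2 of VAT with adjuvant/Fat1562.

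Ndufa4 (chromosome 6, 11900292 to 11907497, minus strand) had the largest estimate of any member in this comparison. It had 665.8 and 515.1 normalized counts in VAT with adjuvant alone, against 1052, 1098 and 1027 in VAT with adjuvant/Fat1562, 1222, 1105 and 1235 in Spl/LN with adjuvant alone and 1134, 1171 and 1322 in Spl/LN with adjuvant/Fat1562. The 2 libraries of VAT with adjuvant alone were low and the other 9 lay within 1027 to 1322. Its rise with peptide in VAT was 1.79-fold (log2 fold change 0.84 ± 0.12 SE, edgeR adjusted p = 0.000311). The 5 endothelial genes summed to 242 and 298.2 in the VAT controls, with Tek and Cldn5 at 0, and to 412 to 595.3 in the other libraries, and their part in the result was not tested. The B cell list differed between the 2 low libraries (6893 and 39030), and the rise of Ndufa4 was called without either of them.

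**Figure D3:**
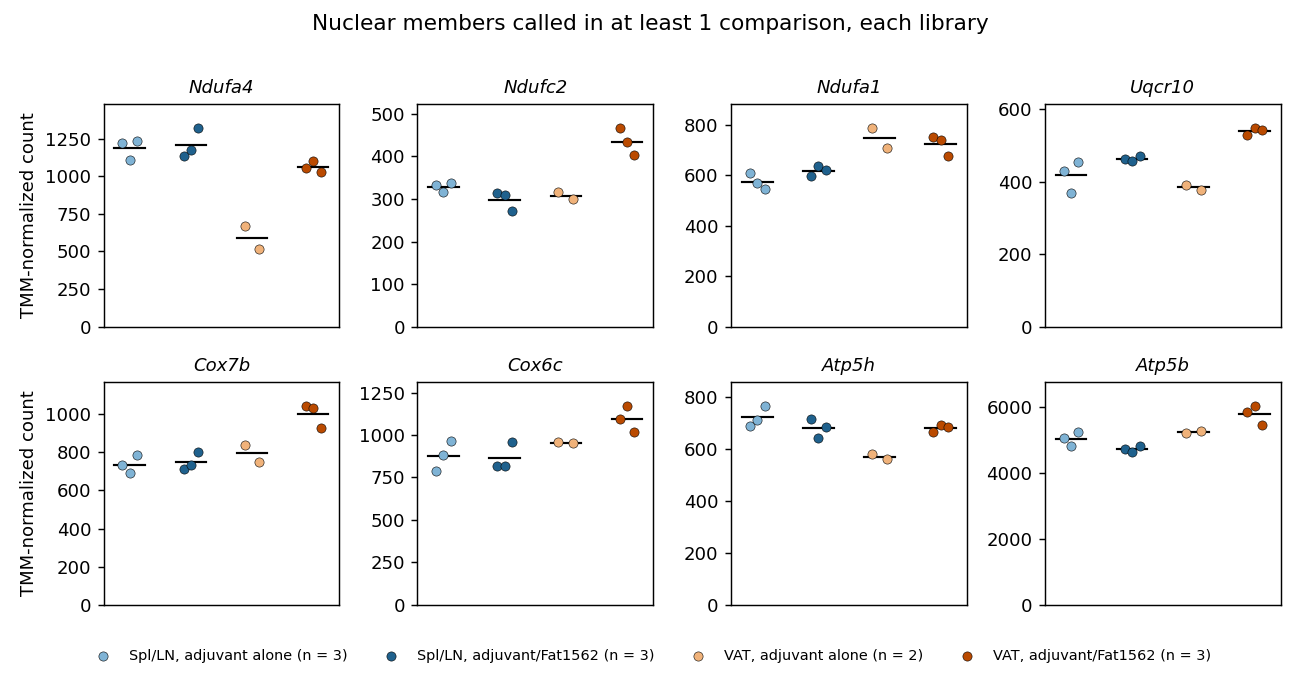
TMM-normalized counts (axes from 0) of the 8 nuclear members called in at least 1 comparison; points are libraries, colored by group, and bars are group means (n = 3, 3, 2 and 3). Ndufa4 stands at 515.1 and 665.8 in VAT with adjuvant alone and at 1027 or higher in every other library, and Ndufc2 is highest in VAT with adjuvant/Fat1562.

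Ndufc2 (chromosome 7, 97400003 to 97407802, plus strand), an accessory subunit of the membrane arm of complex I, had 315.5 and 300.6 normalized counts in VAT with adjuvant alone and 467.5, 433.5 and 403.8 with adjuvant/Fat1562 (0.50 ± 0.14, edgeR adjusted p = 0.0408). Uqcr10 (chromosome 11, 4701973 to 4704342, minus strand), a small subunit of complex III, had 392.5 and 376.7 against 528.2, 549.5 and 544.2 (0.49 ± 0.13, edgeR adjusted p = 0.0260). In both genes the groups were apart, but each call was lost when any 1 of the 5 VAT libraries was left out (adjusted p from 0.0541 to 0.231 for Ndufc2 and from 0.0538 to 0.181 for Uqcr10).

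The mitochondrial genes went the other way in the same libraries. mt-Nd1 had 21690 and 22760 normalized counts in VAT with adjuvant alone and 16080, 14630 and 16640 with adjuvant/Fat1562, and thus fell by 29% (−0.49 ± 0.07, edgeR adjusted p = 0.000308). mt-Co1 had 21060 and 23240 against 17470, 16240 and 18760 (−0.34 ± 0.08, edgeR adjusted p = 0.0105), and mt-Nd2 had 812.1 and 725.9 against 612.5, 553.6 and 513.2 (−0.46 ± 0.13, edgeR adjusted p = 0.0356). None of the 3 overlapped between the groups. The call of mt-Co1 was lost without library 2 of the controls (adjusted p = 0.144) or library 2 of the peptide group (0.0613), and that of mt-Nd2 without libraries 1 or 2 of the controls (0.254 and 0.0802) or libraries 2 or 3 of the peptide group (0.104 and 0.114). Under quantile normalization mt-Co1 had an estimate of 0.014 and mt-Nd1 one of −0.15, neither called. mt-Cytb (−0.22, edgeR adjusted p = 0.0845) and mt-Nd5 (−0.23, edgeR adjusted p = 0.0953) did not pass the test.

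All 11 mitochondrial members were below 0 in VAT, with a median of −0.24, while 64 of the 85 nuclear members were above 0, with a median of 0.10 beside 0.01 over all genes. Without library 1 of VAT with adjuvant alone the medians were −0.38 and 0.16, and without its library 2 the nuclear median was 0.059, and in both cases 1 mitochondrial member was above 0. Among the nuclear members the peptide group lay above without overlap in 34 and below in 1 (Ndufs7), against 21.1% and 20% of all genes. Among the mitochondrial members it lay above in 0 and below in 7. For the 5 with at most 20% shared stretches all estimates were below 0 (median −0.23), and in 4 of them the peptide group lay below without overlap. The median was 0.20 for the 11 nuclear members of complex IV, of which all were above 0, and 0.15 for the 16 of complex V, of which 15 were. It was 0.10, 0.08 and 0.09 for complexes I, II and III and −0.03 for the 8 assembly factors. Most of these nuclear differences were small next to their standard errors. An unadjusted p under 0.05 was found for 11 of the 85 nuclear members, against 2714 of all 12932 genes, a larger share. The peptide comparisons in VAT and Spl/LN share no libraries. mt-Co1 was called in VAT and not in Spl/LN, and mt-Nd5 and mt-Cytb the reverse, but the difference between the tissues was not called for any of them (interaction estimates of −0.18, 0.30 and 0.13, edgeR adjusted p = 0.436, 0.151 and 0.567).

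**Figure D4:**
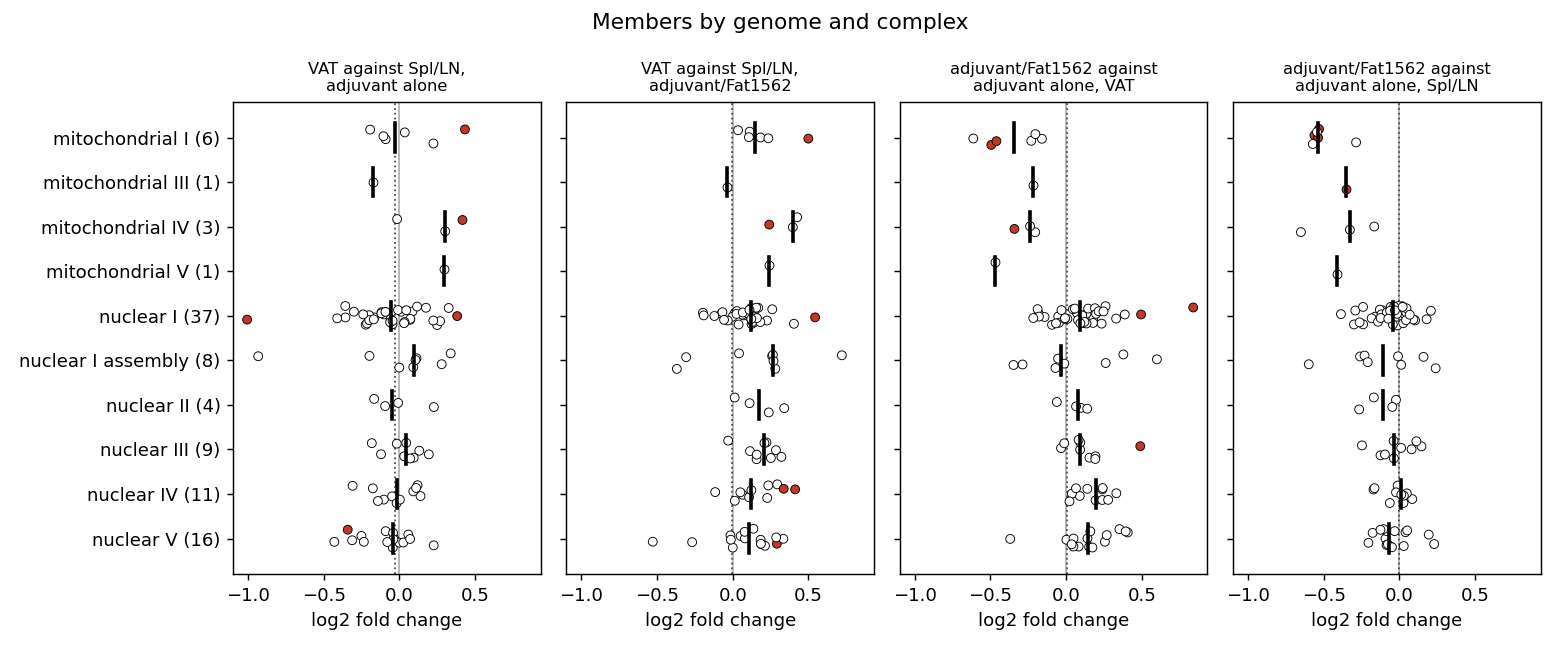
Log2 fold change of each member (horizontal axis) by genome and complex (rows, with the number of members), in the 4 comparisons; red points passed the test (edgeR adjusted p under 0.05 over all genes), thick lines are medians of a row, and the dotted line is the median of all 12932 genes. All 11 mitochondrial members lie left of 0 in both peptide comparisons, with medians of −0.24 in VAT and −0.53 in Spl/LN.

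The tissue comparison with adjuvant alone set VAT against Spl/LN in the absence of the peptide. It shares the VAT controls with the peptide comparison in VAT and the Spl/LN controls with that in Spl/LN, so these are not separate evidence. Of 96 members 3 were higher in VAT (mt-Nd1, mt-Co1 and Ndufa1) and 2 lower (Ndufa4 and Atp5h), while 9.09% of all genes tested were higher and 7.18% lower, so fewer members than average were called. This split depended on scaling: with library totals alone, which moved the median of all genes from −0.03 to −0.18, 2 members were higher and 14 lower (904 and 1630 over all genes, against 1175 and 928 with TMM), and with quantile normalization 0 were higher and 10 lower. The count was 3 without library 2 of Spl/LN with adjuvant alone or without either VAT library.

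Ndufa4, given above for each library, had 0.498 times the Spl/LN level in VAT (−1.01 ± 0.12, edgeR adjusted p = 1.6e-05), and this call held under every alternative tried. mt-Nd1 was higher in VAT (21690 and 22760 against 16590, 16690 and 16110, log2 fold change 0.43 ± 0.07, edgeR adjusted p = 0.000417), as was mt-Co1 (21060 and 23240 against 16730, 17660 and 15380, log2 fold change 0.42 ± 0.08, edgeR adjusted p = 0.00104). Both calls were lost under quantile normalization (0.10 each). Ndufa1 (chromosome X, 37187588 to 37191163, minus strand), an accessory subunit of complex I, had 789.4 and 709.7 against 608.7, 571.8 and 546 (0.38 ± 0.11, edgeR adjusted p = 0.0295). Atp5h (chromosome 11, 115415689 to 115419962, minus strand), the d subunit of the ATP synthase stalk, had 579 and 560 against 688.7, 712.4 and 764.2 (−0.34 ± 0.11, edgeR adjusted p = 0.0471), and 55.5% of its 38-base stretches occur elsewhere. In each of these genes the VAT libraries lay on 1 side of all Spl/LN libraries. The calls of Ndufa1 and Atp5h were lost without libraries 2 or 3 of Spl/LN or either VAT library (adjusted p from 0.0561 to 0.238 and from 0.0741 to 0.216).

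The mitochondrial genes did not differ as 1 group between the tissues of control mice. Their median was 0.04, with 6 of 11 above 0, and it was below 0 without library 3 of Spl/LN with adjuvant alone (−0.06) or without library 1 (−0.03) or library 2 (−0.06) of VAT with adjuvant alone. For the 5 members with at most 20% shared stretches the median was −0.11, with 2 above 0. mt-Cytb (−0.17, edgeR adjusted p = 0.144), mt-Nd5 (−0.19, edgeR adjusted p = 0.122) and mt-Nd4 (−0.09, edgeR adjusted p = 0.555) had negative estimates where mt-Nd1 and mt-Co1 were higher. The nuclear median was −0.04, with 35 of 85 above 0, beside −0.03 over all genes. With library totals 11 of 85 were above 0 and with quantile normalization 26. It was 0.0003 without library 3 of Spl/LN and −0.063 without library 1 of VAT. Medians by complex ran from −0.06 for complex I to 0.05 for complex III, with 0.10 for the assembly factors.

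With adjuvant/Fat1562 in both tissues, VAT cells had 6 members higher than Spl/LN cells and 0 lower, while 8.26% of all genes were higher and 6.73% lower. They were Ndufc2, mt-Nd1, Cox7b, Cox6c, Atp5b and mt-Co1. DESeq2 called 7 members, all higher. By edgeR 15 of the 85 nuclear members had an unadjusted p under 0.05, against 3551 of all 12932 genes, a smaller share. Both the 6 of 96 members higher and the 0 lower are smaller shares than those over all genes. Ndufa4 did not pass the test here (−0.19, edgeR adjusted p = 0.261), although its groups did not overlap.

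mt-Nd1 had 16080, 14630 and 16640 normalized counts in VAT and 11140, 10510 and 11830 in Spl/LN, 1.41-fold higher (0.50 ± 0.07, edgeR adjusted p = 3.8e-05). Ndufc2 had 467.5, 433.5 and 403.8 against 314.6, 308.9 and 271.4 (0.54 ± 0.13, edgeR adjusted p = 0.00659). Cox7b (chromosome X, 106015700 to 106022450, plus strand), a small subunit of complex IV, had 1042, 1033 and 927.1 against 714.2, 735.3 and 803.8 (0.41 ± 0.10, edgeR adjusted p = 0.00958). These 3 genes were called under every alternative and with every library left out in turn, and in each the VAT libraries were all above the Spl/LN libraries.

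Atp5b (chromosome 10, 128083273 to 128090391, plus strand), the catalytic β subunit of ATP synthase, had 5862, 6031 and 5468 in VAT against 4743, 4625 and 4813 in Spl/LN (0.29 ± 0.07, edgeR adjusted p = 0.00772). Cox6c (chromosome 15, 35925886 to 35938246, minus strand), another small complex IV subunit, had 1093, 1170 and 1018 against 820, 817.6 and 958.3 (0.34 ± 0.11, edgeR adjusted p = 0.0394). mt-Co1 had 17470, 16240 and 18760 against 14960, 15030 and 14390 (0.24 ± 0.07, edgeR adjusted p = 0.0268). The groups did not overlap in any of the 3, but the call of Cox6c was lost without libraries 1 or 2 of either group (adjusted p from 0.0970 to 0.165) and that of mt-Co1 without any Spl/LN library or libraries 1 or 3 of VAT (0.0609 to 0.112). The call of Atp5b was lost under quantile normalization (limma adjusted p = 0.172). That of Cox6c was also lost with library totals, with quantile normalization and without a filter, and that of mt-Co1 with library totals. Of Cox6c, 7.01% of the exon bases overlap Vps13b on the other strand, and whether counting used strand is not given.

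In the mice given peptide most estimates lay on the side of VAT. Of the nuclear members 69 of 85 were above 0 (median 0.12) and of the mitochondrial members 10 of 11 (median 0.24), beside a median of −0.01 over all genes. The nuclear median was 0.081 without library 1 of Spl/LN with adjuvant/Fat1562, and the mitochondrial one 0.14 without library 1 of VAT with adjuvant/Fat1562. In 27 nuclear members VAT lay above without overlap and in 4 below (Cox7a2l, Ndufa3, Ndufa4 and Ndufs7), against 18.8% and 17.4% of all genes. For mitochondrial members these counts were 4 and 0. Of the 5 mitochondrial members with at most 20% shared stretches, 4 were above 0 (median 0.11), and VAT lay above without overlap in 1. Medians by complex were 0.12 for complex I, 0.17 for complex II, 0.21 for complex III, 0.12 for complex IV and 0.11 for complex V. This comparison shares the VAT libraries with the peptide comparison in VAT, so the 2 are not separate evidence.

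Whether the peptide effect differed between VAT and Spl/LN was tested as the interaction of tissue and immunization. Only Ndufa4 among the 96 members was called (0.81 ± 0.16, edgeR adjusted p = 0.00816), where 3.72% of all genes were called in either direction. Its log2 fold change with peptide was 0.84 in VAT and 0.03 in Spl/LN. Without library 2 of VAT with adjuvant alone, the lower of the 2 control VAT libraries and the one with the high B cell list, the estimate was 0.64 with an adjusted p of 0.0653, and 0 members were called. Ndufc2 (0.64 ± 0.19, edgeR adjusted p = 0.0770) did not pass. Estimates were above 0 in 70 of 85 nuclear members (median 0.16) and 8 of 11 mitochondrial members (median 0.12), beside 0.01 over all genes. An unadjusted p under 0.05 was found for 6 nuclear members and 1 mitochondrial member, against 2193 of all 12932 genes.

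**Figure D5:**
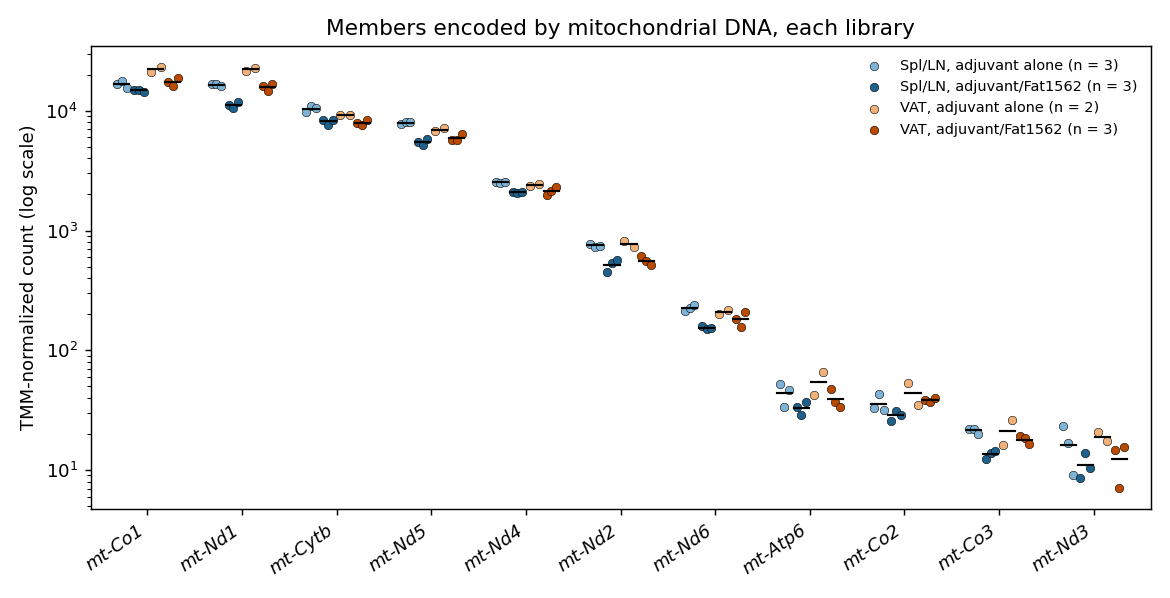
TMM-normalized counts (log scale) of the 11 members of mitochondrial DNA, ordered by mean; points are libraries, colored by group, and bars are group means (n = 3, 3, 2 and 3). mt-Nd1 is highest in VAT with adjuvant alone (21690 and 22760) and lowest in Spl/LN with adjuvant/Fat1562 (10510 to 11830), while mt-Cytb is highest in Spl/LN with adjuvant alone.

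Ratios of raw counts between mitochondrial genes need no scaling of libraries, and they showed that the mitochondrial transcripts did not change in 1 proportion. mt-Nd1 and mt-Cytb have almost no shared stretches, and their ratio was 1.58 ± 0.0863 (SD, n = 3, range 1.53 to 1.68) in Spl/LN with adjuvant alone and 1.37 ± 0.0435 (1.33 to 1.41) with adjuvant/Fat1562. In VAT it was 2.40 ± 0.0997 (2.33 and 2.47) with adjuvant alone and 1.99 ± 0.0643 (1.92 to 2.04) with adjuvant/Fat1562. The 4 groups did not overlap, with both VAT groups above both Spl/LN groups and each peptide group below its control. The ratio of mt-Nd1 to mt-Nd5 was 2.07 ± 0.0808 and 2.02 ± 0.00929 in the Spl/LN groups, which overlapped, and 3.19 ± 0.0347 and 2.66 ± 0.15 in VAT with adjuvant alone and adjuvant/Fat1562. mt-Nd5 to mt-Cytb was 0.766 ± 0.0256 and 0.677 ± 0.0187 in Spl/LN and 0.753 ± 0.0395 and 0.749 ± 0.0244 in VAT, with the 3 groups other than Spl/LN with adjuvant/Fat1562 overlapping. For mt-Co1 to mt-Nd1 the ratio was 1.01 ± 0.0516 and 0.996 ± 0.0352 in the controls of Spl/LN and VAT, and 1.33 ± 0.108 and 1.11 ± 0.0201 with peptide. These ratios were chosen after the counts had been seen and were not tested.

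Smart-seq2 captures RNA by its poly(A) tail, and none of these values is a measure of mitochondrial DNA, protein or respiration. Genes outside the complexes give the surroundings in which the members moved. Of all 12932 genes, 4.33% were higher and 3.97% lower with peptide in VAT, and 2.58% and 1.4% in Spl/LN. For VAT against Spl/LN the shares were 9.09% and 7.18% with adjuvant alone and 8.26% and 6.73% with adjuvant/Fat1562. The counts of called genes below are to be read beside these shares. Of 25 genes of mitochondrial transcription and RNA processing, 0 were called in either peptide comparison with edgeR (4 in VAT and 3 in Spl/LN at an unadjusted p under 0.05, against 2714 and 2371 of all 12932 genes), with medians of 0.09 in VAT and 0.00 in Spl/LN. Among them the mitochondrial transcription factor Tfam had log2 fold changes of 0.16 and −0.01. In the tissue comparison with adjuvant alone Fastkd3 was higher (1.16, edgeR adjusted p = 0.00368) and Elac2, which cuts tRNAs from the mitochondrial precursors, lower (−0.77, edgeR adjusted p = 0.00843). Of 77 tested mitochondrial ribosomal protein genes, 2 were higher and 0 lower with peptide in VAT (median 0.12), 0 were called in Spl/LN (median −0.05, 3 at an unadjusted p under 0.05), 0 were higher and 4 lower in VAT with adjuvant alone and 3 higher and 1 lower in VAT with adjuvant/Fat1562. In none of these comparisons was the called share, higher or lower, larger than that over all genes.

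Among assembly genes, Cox17, the copper chaperone of complex IV, was higher with peptide in VAT (416.9, 351.1 and 278.9 against 183.2 and 180.9 normalized counts; log2 fold change 0.94, edgeR adjusted p = 0.00754) and in VAT against Spl/LN with adjuvant/Fat1562 (0.66, edgeR adjusted p = 0.0166). It was the 1 of 20 tested complex IV assembly genes called with peptide in VAT, and Surf1 was lower in the latter comparison (−0.61, edgeR adjusted p = 0.00879). Of the 8 complex I assembly genes outside the members that were tested, Foxred1 was lower in VAT with adjuvant alone (−0.62, edgeR adjusted p = 0.0428) and Tmem126b with adjuvant/Fat1562 (−0.79, edgeR adjusted p = 0.0123). None of the 6 complex III assembly genes was called in the 4 comparisons by edgeR, with 1, 1, 1 and 2 at an unadjusted p under 0.05. Of the 6 complex V genes, 2010107E04Rik was higher in VAT with adjuvant/Fat1562 (0.37, edgeR adjusted p = 0.0281). Atpif1, the inhibitor of ATP synthase, had 331.8 to 486.4 normalized counts and was not called.

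Of 8 tested carriers of electrons and metabolites that serve the complexes, 4 were higher in VAT with adjuvant alone and 3 with adjuvant/Fat1562, and 0 were lower. Over all genes 9.09% and 8.26% were higher and 7.18% and 6.73% lower. Slc25a3, the phosphate carrier that supplies ATP synthase, had 6896 and 6124 normalized counts in VAT and 3940, 3993 and 3990 in Spl/LN with adjuvant alone (0.71, edgeR adjusted p = 3.9e-06), and 6034, 6262 and 5872 against 3778, 4050 and 3921 with adjuvant/Fat1562 (0.63, edgeR adjusted p = 6.3e-06). Every VAT library was above every Spl/LN library. Cycs, the cytochrome c that links complexes III and IV, was higher in VAT with adjuvant alone (0.76, edgeR adjusted p = 0.0294). With peptide, the ATP/ADP carrier Slc25a5 was higher in VAT (0.31, edgeR adjusted p = 0.0380) and Ucp2, a carrier of the uncoupling protein family, in Spl/LN (0.39, edgeR adjusted p = 0.00599).

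Other pathways of fuel use gave the following counts, to be read beside the shares of all genes called in each comparison given above. Of 20 glycolysis genes, 11 were higher with peptide in VAT (median 0.58) and 1 in Spl/LN (median 0.04), and in VAT against Spl/LN 3 were higher and 1 lower with adjuvant alone and 13 higher with adjuvant/Fat1562. Of 15 fatty acid oxidation genes tested, 4 were higher in VAT with adjuvant alone, among them Cpt1a, which brings fatty acids to the mitochondrion (1.03, edgeR adjusted p = 0.000103), 2 with adjuvant/Fat1562, 0 with peptide in VAT (1 at an unadjusted p under 0.05) and 1 with peptide in Spl/LN. Of 17 genes of the TCA cycle, 1 was called in each comparison. In VAT with adjuvant alone this was Idh2, lower by 1.08 on the log2 scale (123.6 and 129.7 against 296.1, 270.8 and 238.3 normalized counts; edgeR adjusted p = 0.00107), and it was also called in the interaction (1.22, edgeR adjusted p = 0.0150). Of 8 genes of mitochondrial antioxidant defence, Sod2, the superoxide dismutase of the matrix, and Gpx4, which reduces lipid peroxides, were higher in VAT with adjuvant alone and lower with peptide in VAT (Sod2 by 0.57 and −0.60, edgeR adjusted p = 0.0149 and 0.0199; Gpx4 by 0.37 and −0.35, edgeR adjusted p = 0.0175 and 0.0419), and Gpx4 was also higher in VAT with adjuvant/Fat1562. The comparisons with the rise and the fall share the libraries of VAT with adjuvant alone, so they are not separate evidence. Of 8 tested regulators of these genes, Myc was higher in VAT against Spl/LN in both settings (1.09 and 1.90), lower with peptide in Spl/LN (−0.83, edgeR adjusted p = 0.00235) and called in the interaction (0.81, edgeR adjusted p = 0.0376), Yy1 was higher with peptide in Spl/LN (0.73, edgeR adjusted p = 0.0490) and Nrf1, Gabpa, Esrra and Ppargc1b were not called.

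Promoters were read because many respiratory subunit genes are known to be bound by NRF1, GABP and YY1. RefSeq promoters (GRCm38.p6, 250 bases before to 50 after the gene start) were found for 70 of the 85 nuclear members. Searched on both strands, the NRF1 core GCGCATGCG was in 14.3% of them against 1.95% of all 27025 genes with a promoter, the ETS core CCGGAAG of GABP in 25.7% against 9.93%, the YY1 core AAGATGGCG in 11.4% against 1.64%, and TGACCTTG of ESRRA in 5.71% against 1.76%. At least 1 of the 4 was in 32 of the 70 promoters (45.7%, against 14.3% of all genes with a promoter), and 7 held 2 or more kinds. The reference of all genes was not restricted to those past the count threshold, as the members were. The window of Ndufa4, the member with the largest called difference, held none, while that of Atp5l, the g subunit of ATP synthase, held 3 kinds and is shown beside it, with matches in capitals. Reading from the left, these are NRF1, ETS, ESRRA and a further ETS match. The windows are chr6:11907401-11907700 and chr9:44920693-44920992, both on the minus strand.
Ndufa4: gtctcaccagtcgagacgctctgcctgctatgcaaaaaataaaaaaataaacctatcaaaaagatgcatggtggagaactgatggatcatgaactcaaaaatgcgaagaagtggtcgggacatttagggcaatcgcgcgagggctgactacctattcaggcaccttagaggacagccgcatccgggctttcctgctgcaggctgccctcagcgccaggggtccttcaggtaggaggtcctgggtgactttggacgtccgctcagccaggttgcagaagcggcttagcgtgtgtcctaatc
Atp5l: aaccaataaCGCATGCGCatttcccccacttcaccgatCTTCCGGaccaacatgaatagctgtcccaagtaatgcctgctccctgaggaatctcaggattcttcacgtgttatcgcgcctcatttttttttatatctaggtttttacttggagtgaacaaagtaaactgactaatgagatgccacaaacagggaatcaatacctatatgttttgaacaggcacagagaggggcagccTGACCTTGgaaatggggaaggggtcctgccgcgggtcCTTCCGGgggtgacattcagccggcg

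A match is a description of the letters only. The promoters of Ndufc2, Ndufa1, Cox7b, Atp5b and Uqcr10, which were called in 1 or more comparisons, held none of the 4 motifs either, that of Atp5h held the ETS core, and no promoter was found for Cox6c.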

How the data were processed

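Transcripts were measured in 11 Smart-seq2 libraries, grouped by the sample labels. The authors deposited 1 table of raw counts for 52997 genes, whole numbers without normalization. The submitters' processing notes name STAR 2.5.4, featureCounts and the build mm10, whereas the methods name Cuffquant, and counting settings (strand, reads with several placements) are not given in the sources used here. As no molecular identifiers are described, counts include copies made in 18 PCR cycles.

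Genes with a mean above 10 in any group were tested in 1 fit of the 4 groups with edgeR 4.0.16 in R 4.3.3 (TMM, quasi-likelihood test, prior count 0.125), and p-values were adjusted over all 12932 genes by the Benjamini-Hochberg method. Genes with an adjusted p under 0.05 count as called. Standard errors are the size of the log2 fold change divided by the square root of the F statistic. Sharing was measured by looking up each 38-base stretch of a transcript in the other genes of GENCODE vM21 (GRCm38). The fit was checked on simulated data. No 2 libraries of a group agreed within sampling noise.

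Alternatives were other scalings and filters, DESeq2 1.42.0, limma 3.58.1 with quantile normalization, only the groups compared, a replicate block and each library left out. The members, the gene lists and the rule for named genes were chosen with earlier results of these data known. Named were the mitochondrial protein genes, called members, the highest 2 nuclear members of each complex, isoform families, Foxp3 and Cd4, and genes of the context lists. For the B cell list, 1 gene is not reported here and was left out of its sums.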

Additional observations from a re-analysis of the deposited data

Results flagged for a closer look

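Ndufa4 was flagged because its response to the peptide differed between the tissues by a test of the difference itself. The estimate in VAT minus that in Spl/LN was 0.81 on the log2 scale (edgeR adjusted p = 0.00816), from 665.8 and 515.1 against 1052, 1098 and 1027 normalized counts in VAT and from 1222, 1105 and 1235 against 1134, 1171 and 1322 in Spl/LN. The low libraries of VAT with adjuvant alone also enter the other calls of Ndufa4, so these are not separate evidence. Of 19 alternatives 1, leaving out library 2 of VAT with adjuvant alone, took the adjusted p past the threshold (0.0653), and estimates of the interaction ran from 0.64 to 1.01. No group had over 3 libraries, so single libraries far from their group were not searched for.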

How the results depend on the processing

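Of 22 calls of named members, 7 passed the test under every alternative run for them (9 other settings and each of 11 libraries left out, where these apply): Ndufa4 between tissues with adjuvant alone and with peptide in VAT, mt-Nd1, Ndufc2 and Cox7b between tissues with adjuvant/Fat1562, and mt-Nd1 and mt-Nd5 with peptide in Spl/LN. The 2 calls of Ndufa4 share the libraries of VAT with adjuvant alone, so they are not separate evidence. The other 15 of the 22 calls were lost under at least 1 alternative, and 1 reversed: mt-Co1 with peptide in VAT had 0.014 under quantile normalization. In each library mt-Co1 ranked between 12 and 20 and mt-Nd1 between 13 and 28 among all genes by count, and quantile normalization sets such top values by rank. Between tissues with adjuvant alone, 5 members were called, against 16 with library totals, 10 with quantile normalization and 3 each without a filter or with only the groups compared. With peptide in VAT 6 were called, against 3 with quantile normalization, 3 without a filter and 10 with DESeq2. In the interaction 1 was called, against 2 with library totals, 3 with quantile normalization and 2 with DESeq2. Between tissues with adjuvant alone the median log2 fold change was −0.19 for nuclear and −0.12 for mitochondrial members with library totals, and −0.11 for nuclear ones with quantile normalization. With adjuvant/Fat1562 it was 0.054 for nuclear members with library totals and 0.15 for mitochondrial ones with quantile normalization. Over all genes, library totals gave 890 higher and 1152 lower calls between tissues with adjuvant/Fat1562 (1068 and 870 with TMM), 267 and 231 with peptide in Spl/LN (334 and 181) and 304 and 199 in the interaction (220 and 261), and quantile normalization gave 292 and 241 with peptide in Spl/LN.

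With 1 library left out, members called ranged from 3 to 6 between tissues with adjuvant alone, from 4 to 6 with adjuvant/Fat1562, from 2 to 4 with peptide in VAT, from 2 to 4 in Spl/LN and from 0 to 1 in the interaction. The mitochondrial medians ranged from −0.059 to 0.052, from 0.14 to 0.29, from −0.38 to −0.23 and from −0.54 to −0.39 in the same order of comparisons, and the nuclear ones from 0.059 to 0.16 with peptide in VAT and from −0.10 to −0.005 in Spl/LN. Where 1 VAT control was left, it was assumed to vary like the other groups.

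The labels number the libraries, but the numbers did not pair them: correlations of deviations from group means between same-numbered libraries lay between −0.04 and 0.06. With a replicate block the counts of members called were 4, 6, 4 and 4 in the 4 comparisons and 1 in the interaction, and the calls of Atp5h and Ndufa1 (adjusted p = 0.0995 and 0.0689) between tissues and of mt-Nd2 and Uqcr10 (0.0587 and 0.0540) in VAT were lost. On simulated counts the test found 16.4% of 1.5-fold, 49.3% of 2-fold and 100% of 4-fold changes with peptide in VAT. The simulation gave every gene the same spread (a coefficient of variation of 19%), so these shares do not carry over to genes with another spread. Among the members Ndufc2 and Uqcr10 were called in this comparison at 1.41-fold and 1.405-fold. How many differences of single nuclear members were missed cannot be told from the simulation.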
